A study of Mus musculus with 24 samples.

Results

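Retinoic acid is the form of vitamin A that tells male germ cells to differentiate and to enter meiosis, and the genes described here make it, bind it, destroy it or read it. They were chosen by symbol, as *Stra6*, *Crabp1*, *Rdh10*, *Aldh1a1*, *Aldh1a2*, *Aldh1a3*, *Cyp26a1*, *Cyp26b1*, *Rara* and *Rarg*. These are 10 of the 24456 genes that were counted in each of 24 mouse testis RNA libraries. All 10 passed the filter on low counts that left 17170 genes for testing. No member passed the test between *Atad2* knockout (KO) and wild-type (WT) testes at any day, where 0.0466% to 3.34% of all tested genes did. A count of 0 among 10 members is near that background. With age, *Stra6* and *Crabp1* fell between days 20 and 26 in both genotypes. Sertoli cell genes were also lower at day 26, and relative to them only that of *Stra6* in KO, of these 4 falls, passed the test.

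Testes were taken from male pups at postnatal days 20, 22, 24 and 26. Days 20 and 22 had 4 libraries of each genotype, and days 24 and 26 had 2 of each. For day 20 the labels list more replicates than the methods of the study mention, and all 4 were used here. The KO mice were homozygous for a knockout-first *Atad2* allele with a *lacZ* trapping cassette, from which the *neo* cassette and an exon had been removed by a cross to mice with Cre recombinase under the ubiquitous CMV promoter. The early exons of *Atad2* stay in place in this allele, fused to *lacZ*, and the whole body of the animal carries it, so that germ cells and somatic cells lacked functional ATAD2 alike. WT pups carried no such allele, and the sources used here do not give their strain. The labels give the tissue as testis and also mention a purification of germ cell fractions, while the methods of the study describe whole testes. Markers of Sertoli cells, Leydig cells and peritubular cells were present in every group. Epididymis genes stood far higher in some libraries than in others of the same group, as given with the processing. The labels do not say that replicates came from separate animals, although the methods speak of biological replicates, so p-values measure the spread between these libraries. A name such as WT_d20_2 stands for replicate 2 of WT at day 20.

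Retinol enters cells through the membrane receptor STRA6. RDH10 oxidizes retinol to retinal, and the retinaldehyde dehydrogenases ALDH1A1, ALDH1A2 and ALDH1A3 oxidize retinal to retinoic acid. CRABP1 binds retinoic acid in the cytoplasm, and the cytochrome P450 enzymes CYP26A1 and CYP26B1 inactivate it. The receptors RARA and RARG bind DNA together with an RXR partner and switch genes on when retinoic acid is present. In the testis, Sertoli cells supply the retinoic acid that starts the first wave of spermatogenesis, spermatocytes and spermatids make their own later, and peritubular cells are known for CYP26 enzymes that form a barrier around the tubule.

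Each library held between 10709667 and 19491935 read pairs counted on genes. Levels are given as CPM, the count relative to library size, where size includes a TMM factor that corrects for composition. At these depths 3 counts correspond to 0.153 to 0.316 CPM, and the lowest member count in any library was 8, for *Cyp26a1*. *Atad2* itself averaged 34.0 to 52.7 CPM in KO groups and 84.8 to 125 CPM in WT groups, with no overlap at any day. WT_d20_2 and KO_d22_4 stood apart by composition, with 13.7% and 4.74% of their read pairs aligned to several places, the highest and lowest shares of all. WT_d20_2 held the lowest *Aldh1a2*, *Rara* and *Rarg* of the 24 libraries, and KO_d22_4 the lowest *Aldh1a1* and *Aldh1a3*. RNA was measured in bulk, so fewer cells of a type and less RNA per cell cannot be told apart.

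Promoter sequences show which members carry a sequence that retinoic acid receptors can bind. The classical form is a direct repeat of a 6-base core with 5 bases between the copies, and the cores searched, on both strands, were AGGTCA and its variants with 1 or more changed bases, namely AGTTCA, then GGGTCA, then GGTTCA. RefSeq promoters (build GRCm38.p6) of 300 bases were found for 8 of the 10 members, in 16 entries, and *Rdh10* and *Aldh1a3* had none in the table. The repeat was found in *Cyp26a1* and in no other member, and in 32 of all 32851 promoters, or 0.0974%. Repeats with 1 base and 2 bases between the cores were found in 0.222% and 0.268% of all promoters and in no member. A single core was found in 43.7% of all promoters and in some promoter of *Aldh1a1*, *Cyp26a1*, *Rara*, *Rarg* and *Stra6*. The *Cyp26a1* promoter is shown with the repeat in capitals, and those of *Cyp26b1*, *Aldh1a2* and *Crabp1*, which carry the age changes described further on, are shown for comparison without capitals because they hold no core.
Cyp26a1: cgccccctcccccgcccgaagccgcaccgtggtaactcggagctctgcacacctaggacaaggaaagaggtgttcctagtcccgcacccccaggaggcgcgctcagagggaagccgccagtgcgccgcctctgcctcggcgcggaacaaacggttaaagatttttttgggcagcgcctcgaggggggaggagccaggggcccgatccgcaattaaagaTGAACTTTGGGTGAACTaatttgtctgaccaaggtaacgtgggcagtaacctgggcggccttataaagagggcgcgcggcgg
Cyp26b1: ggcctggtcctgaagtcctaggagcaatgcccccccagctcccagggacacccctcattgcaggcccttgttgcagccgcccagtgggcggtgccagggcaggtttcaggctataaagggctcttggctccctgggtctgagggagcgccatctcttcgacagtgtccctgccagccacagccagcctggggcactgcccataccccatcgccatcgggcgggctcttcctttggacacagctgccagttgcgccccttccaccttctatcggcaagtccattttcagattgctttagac
Aldh1a2: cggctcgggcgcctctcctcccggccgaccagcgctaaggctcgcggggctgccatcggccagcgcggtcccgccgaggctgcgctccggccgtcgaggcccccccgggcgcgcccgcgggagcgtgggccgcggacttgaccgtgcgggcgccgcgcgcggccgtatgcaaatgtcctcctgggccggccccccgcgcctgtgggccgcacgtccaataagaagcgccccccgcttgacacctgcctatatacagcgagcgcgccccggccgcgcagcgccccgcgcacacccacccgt
Crabp1: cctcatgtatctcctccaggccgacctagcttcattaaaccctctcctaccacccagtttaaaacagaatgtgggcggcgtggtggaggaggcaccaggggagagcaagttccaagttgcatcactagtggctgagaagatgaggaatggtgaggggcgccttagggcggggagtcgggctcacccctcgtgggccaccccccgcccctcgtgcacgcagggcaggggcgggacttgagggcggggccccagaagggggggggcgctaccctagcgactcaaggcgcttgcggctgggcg

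The *Cyp26a1* promoter lies at chr19:37697558-37697857 on the plus strand. Its repeat reads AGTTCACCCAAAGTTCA on the opposite strand, at chr19:37697776-37697792, from 32 to 16 bases upstream of the RefSeq start. The *Cyp26b1* promoter lies at chr6:84593761-84594060 on the minus strand, and those of *Aldh1a2* and *Crabp1* at chr9:71215539-71215838 and chr9:54764498-54764797 on the plus strand. The *Aldh1a2* promoter was 78% G and C with 50 CpG dinucleotides, against medians of 52.7% and 7 over all promoters. A match describes these letters only, and the window without a match says nothing of sites elsewhere in a gene.

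The 10 genes differed widely in level. Levels were compared between genes as CPM per kilobase of exon, with the exon length taken over all annotated transcripts of a gene. *Aldh1a1* was the most abundant member in every group, with a median of 136 CPM per kilobase over the 24 libraries, and by CPM its median stood at the 99.5th percentile of the tested genes. *Aldh1a2* followed at 60.5 CPM per kilobase and *Cyp26b1* at 43.2. *Crabp1* at 10.4 and *Rara* at 8.20 CPM per kilobase formed a middle tier. *Aldh1a3* at 2.20, *Rarg* at 2.05, *Rdh10* at 1.94 and *Stra6* at 1.42 CPM per kilobase were low, and *Cyp26a1* was lowest in every group at a median of 0.540. Of the 2 breakdown enzymes, *Cyp26b1* was thus far more abundant than *Cyp26a1*, the member with the receptor-binding repeat in its promoter. Each of the 10 genes varied between 2.01-fold (*Rdh10*) and 4.09-fold (*Cyp26a1*) from its lowest to its highest library.

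**Figure D1:**
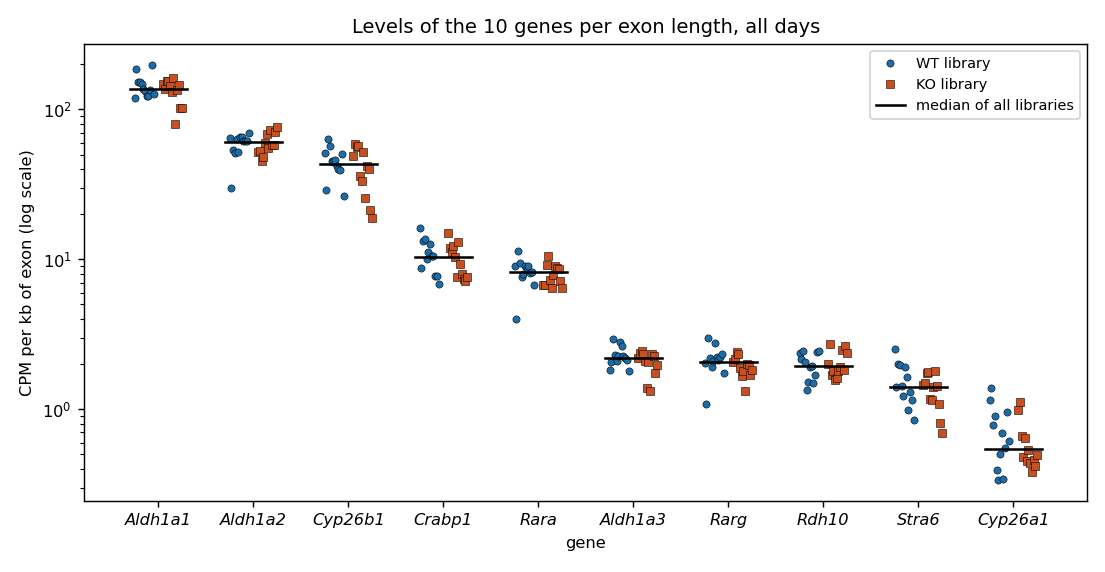
Level of each member in each library, as CPM per kilobase of exon on a log scale, with WT libraries as circles, KO libraries as squares and a bar at the median of the 24 libraries. *Aldh1a1* lies highest with a median of 136 and *Cyp26a1* lowest with 0.540, and *Aldh1a3*, *Rarg* and *Rdh10* overlap each other.

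The order shifted with age for *Aldh1a2* and *Cyp26b1*. In KO at day 20 *Cyp26b1* averaged 55.0 ± 4.38 and *Aldh1a2* 49.5 ± 3.42 CPM per kilobase (SD, n = 4), and their libraries overlapped. In KO at day 26 *Aldh1a2* averaged 73.4 ± 4.22 and *Cyp26b1* 20.1 ± 1.65 CPM per kilobase (SD, n = 2), without overlap. In WT the same genes averaged 49.8 ± 14.6 and 50.1 ± 15.1 CPM per kilobase at day 20 and 65.4 ± 5.64 and 38.4 ± 16.9 at day 26. *Aldh1a2* thus stood level with *Cyp26b1* at day 20 and above it, without overlap, at days 22, 24 and 26 in both genotypes. *Aldh1a1*, also a synthesis enzyme, stood above both in every group. *Aldh1a3*, *Rarg* and *Rdh10* kept no fixed order, and neighbours among them overlapped in most groups.

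The study compared KO with WT at each day to ask how loss of ATAD2 changes testis transcription. In edgeR's quasi-likelihood test with Benjamini-Hochberg adjustment over all genes, 0 of the 10 members passed an adjusted p of 0.05 at day 20, where 3.34% of all tested genes did. Day 22 also gave 0 members (background 2.51%), as did day 24 (0.0874%), day 26 (0.0466%) and the mean of the 4 days (7.08%). A test of unequal KO effects among the 4 days called 0 members against 0.00582% of all genes. DESeq2, run as an alternative, also called 0 members in each of these comparisons. An unadjusted p under 0.05 was reached by 2 members at day 22 (*Aldh1a3* and *Rarg*), by 2 at day 26 (*Cyp26b1* and *Aldh1a1*) and by 0 at day 20, day 24 or over the mean of the days. Of all tested genes 14.6% reached it at day 22, 11.5% at day 26, 12.5% at day 20, 5.23% at day 24 and 23.2% over the mean of the days, so 2 of 10 is near the background. In this fit few genes of any kind passed at days 24 and 26, so the counts there carry little information about the members. With day 26 fitted alone 2104 genes passed, and in DESeq2 159 did, of which 0 were members in either case.

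The log2 fold changes of the 10 members, KO against WT, ranged from -0.36 to 0.14 at day 20 and from -0.52 to 0.08 at day 22. The ranges were -0.25 to 0.44 at day 24 and -0.93 to 0.17 at day 26. Over the mean of the days they ranged from -0.29 for *Cyp26a1* to 0.09 for *Rdh10*, with 8 of 10 below zero, and their median was -0.15 beside a median of 0.01 over all tested genes. The widest 95% interval over the mean of the days, that of *Cyp26a1*, ran from -0.68 to 0.10, and the *Cyp26a1* value was -0.18 without WT_d24_2. The KO libraries lay wholly above or below the WT libraries for 0 of 10 members at day 20 (4.71% of all genes) and 1 at day 22 (8.09%). Days 24 and 26 each gave 5 members, where 44% and 59% of all genes were so separated. With 2 libraries against 2, separation is common among all genes.

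**Figure D2:**
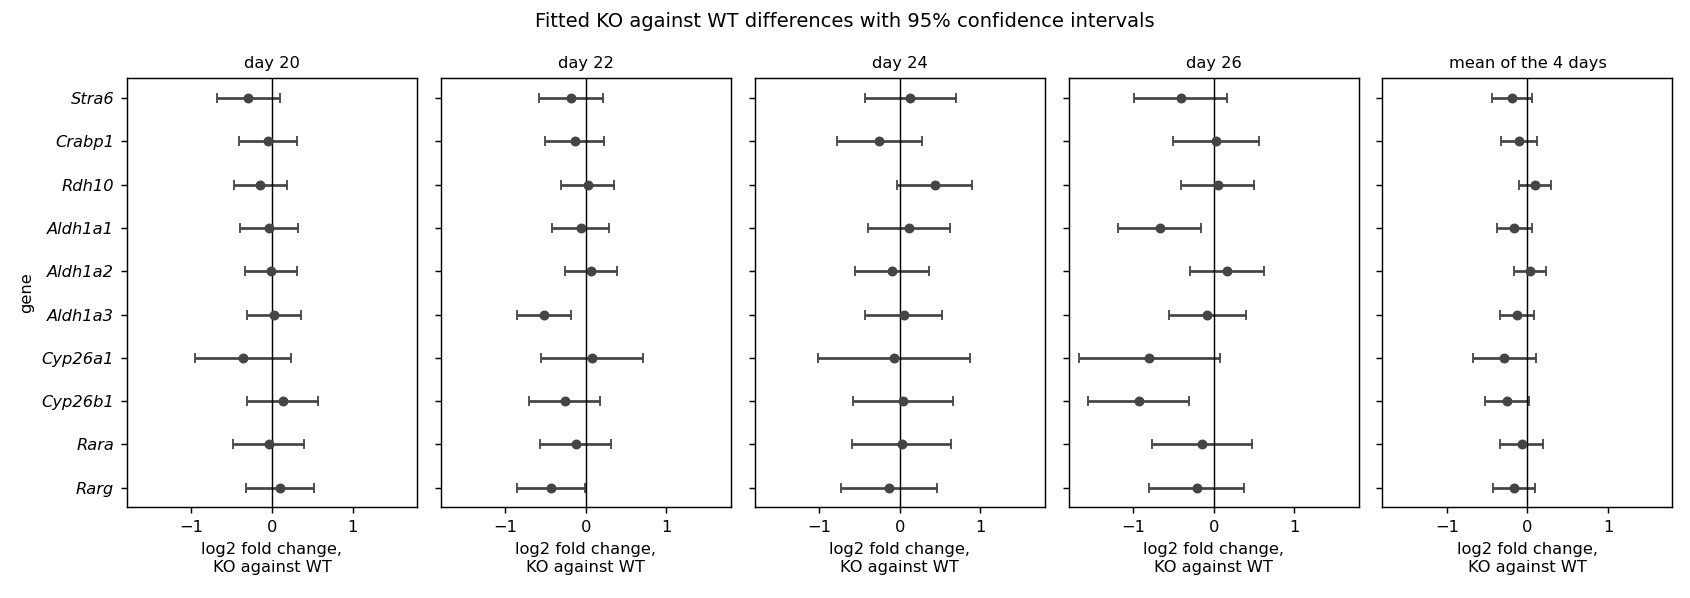
Fitted log2 fold change of each member, KO against WT, at each day and over the mean of the 4 days, as points with 95% confidence intervals and a line at zero. Over the mean of the days every interval includes zero, and at day 26 the lowest point is *Cyp26b1* at -0.93.

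*Stra6*, the retinol uptake gene, lies at chr9:58063788-58153996 on the plus strand. At day 20 it measured 14.8, 8.21, 11.7 and 11.4 CPM in WT and 8.41, 8.76, 10.2 and 10.4 CPM in KO. At day 26 it measured 6.72 and 4.95 CPM in WT and 4.75 and 4.07 CPM in KO, below every day 20 library of the same genotype. *Stra6* thus fell with age in both genotypes. The log2 fold change of day 26 against day 20 was -0.98 (SE 0.243, adjusted p = 0.00268) in WT and -1.10 (SE 0.248, adjusted p = 0.00107) in KO, by edgeR. Without WT_d26_2 the WT fall was -0.78 and missed the threshold (adjusted p = 0.0687). Scaled to Sertoli genes the values of *Stra6* were -0.48 in WT (adjusted p = 0.0636) and -0.53 in KO (adjusted p = 0.0399). Over the mean of the days KO and WT differed by -0.19 (95% interval -0.43 to 0.06, adjusted p = 0.361), and by -0.12 without WT_d24_2.

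*Crabp1* encodes the cytoplasmic binding protein and lies at chr9:54764748-54773110 on the plus strand. At day 20 it measured 12.97, 7.06, 10.6 and 10.9 CPM in WT and 11.97, 9.48, 9.05 and 9.89 CPM in KO. At day 26 it measured 6.20 and 5.45 CPM in WT and 5.78 and 6.14 CPM in KO, again below every day 20 library of its genotype. It fell by 0.84 on the log2 scale in WT (SE 0.225, adjusted p = 0.00494) and by 0.76 in KO (SE 0.223, adjusted p = 0.00764) in edgeR. Without WT_d26_2 the WT value of *Crabp1* was -0.75 (adjusted p = 0.0676), and without KO_d26_1 the KO value was -0.73 (adjusted p = 0.0565). Scaled to Sertoli genes *Crabp1* stood at -0.32 in WT and -0.18 in KO, and neither passed. Of 9 spermatogonia genes 5 were also lower at day 26 in each genotype, with medians of -0.72 in WT and -0.63 in KO, and their part was not tested. KO and WT differed by -0.10 over the mean of the days (95% interval -0.33 to 0.12, adjusted p = 0.631), and by -0.041 without WT_d24_1.

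*Rdh10*, which makes retinal, lies at chr1:16105774-16133734 on the plus strand. In WT it averaged 9.40 ± 0.728, 7.03 ± 1.23, 6.60 ± 0.560 and 10.04 ± 0.107 CPM from the first day to the last (SD, n = 4, 4, 2 and 2). In KO it averaged 8.53 ± 1.94, 7.16 ± 0.637, 8.94 ± 1.92 and 10.4 ± 0.853 CPM in the same order. It was thus nearly level between the first and last day, with log2 fold changes of 0.09 (adjusted p = 0.719) in WT and 0.29 (adjusted p = 0.208) in KO by edgeR. Without KO_d20_2 the KO value of *Rdh10* was 0.45 and passed (adjusted p = 0.0409), and the WT value was 0.023 without WT_d20_4 and 0.032 without WT_d20_2. The KO against WT difference over the mean of the days was 0.09 (95% interval -0.11 to 0.29), with 0.033 without KO_d24_1 and 0.14 without KO_d24_2.

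*Aldh1a1*, a retinaldehyde dehydrogenase known from Sertoli and Leydig cells, lies at chr19:20492715-20643465 on the plus strand. In WT it measured 589, 921, 748 and 751 CPM at day 20 and 981 and 630 CPM at day 26. In KO it measured 734, 673, 768 and 766 CPM at day 20 and 504 and 508 CPM at day 26. The KO libraries of day 26 were close together and below those of day 20, while the WT libraries of day 26 lay far apart, 1 within the range of day 20 and 1 above it. *Aldh1a1* fell by 0.54 on the log2 scale in KO (SE 0.216, adjusted p = 0.0414), and in WT its log2 fold change was 0.10 (SE 0.210, adjusted p = 0.731) in edgeR. The WT value turned on single libraries, being -0.27 without WT_d26_1, -0.04 without WT_d20_1 and 0.38 without WT_d26_2. The KO fall sat close to the threshold and was not called in DESeq2 (-0.45, adjusted p = 0.0723), nor with relative log expression scaling (-0.45, adjusted p = 0.0834), nor without any filter on low counts (-0.52, adjusted p = 0.0527), nor without KO_d20_1, KO_d20_3, KO_d20_4, KO_d26_1 or KO_d26_2. Of the 7 Leydig cell genes, 7 were called higher at day 26 than at day 20 in WT (median log2 fold change 1.85) and 2 in KO (median 0.49), and their part in the *Aldh1a1* values was not tested.

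At day 26 the KO libraries lay below both WT libraries for *Aldh1a1*, where 59% of all tested genes did not overlap between genotypes. The log2 fold change of -0.67 (SE 0.245, 95% interval -1.18 to -0.16) missed the threshold over all genes (adjusted p = 0.291 in edgeR). The size of this value rested on WT_d26_1. Without that library it was -0.31, and without WT_d26_2 it was -0.96. WT_d26_1 also held the highest level of the Leydig cell list. The summed level of the 7 Leydig genes was 1258 and 2050.2 CPM in WT at day 26 and 1049 to 1173 CPM in KO, and that of the 5 macrophage genes was 194 and 277 CPM in WT and 169 to 179.7 CPM in KO. Neither list held a gene at 0, and the part of these cells in the *Aldh1a1* value was not tested.

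*Aldh1a2*, the retinaldehyde dehydrogenase of germ cells, lies at chr9:71215789-71296243 on the plus strand. In KO it measured 118, 119, 103 and 109 CPM at day 20 and 159 and 173 CPM at day 26, without overlap. In WT it measured 147, 67.7, 121 and 115 CPM at day 20 and 139 and 157 CPM at day 26, where the highest day 20 library overlapped the day 26 range. It rose by 0.57 on the log2 scale in KO (SE 0.188, adjusted p = 0.0154), and its value in WT was 0.39 (SE 0.189, adjusted p = 0.102) by edgeR. *Aldh1a2* was the only member called higher with age in that fit. In KO the rise missed the threshold without KO_d26_1 (0.61, adjusted p = 0.0504) or without KO_d26_2 (0.49, adjusted p = 0.124). The WT value for *Aldh1a2* passed without WT_d20_1 (0.51, adjusted p = 0.0326) and was 0.17 without WT_d20_2 (adjusted p = 0.294). KO and WT levels of *Aldh1a2* were nearly equal over the mean of the days, at 0.03 (95% interval -0.17 to 0.23).

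The pachytene spermatocyte marker list moved the same way. Of its 6 genes, 4 were called higher at day 26 in each genotype, with a median log2 fold change of 0.88 in WT and 0.94 in KO. Its summed level was 2365 to 3476 CPM in WT and 3162 to 3627 CPM in KO at day 20, and 4835 to 5380.5 CPM in WT and 6387 to 6587 CPM in KO at day 26. No gene of the list was at 0. The part of spermatocyte number in the *Aldh1a2* rise was not tested.

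*Aldh1a3*, the third dehydrogenase, lies at chr7:66390890-66427517 on the minus strand. At day 22 it measured 9.72, 10.5, 12.9 and 12.3 CPM in WT and 9.74, 6.37, 9.56 and 6.10 CPM in KO. The groups just overlapped, with KO replicate 1 beside the lowest WT library. The log2 fold change was -0.52 (SE 0.164, 95% interval -0.86 to -0.18) with an adjusted p of 0.0971 in edgeR, the smallest adjusted p of any member between genotypes. It passed the threshold without KO_d22_1 (-0.63, adjusted p = 0.0371). At the other days the group means of *Aldh1a3* differed little, at 10.6 ± 2.16 and 10.8 ± 0.494 CPM at day 20 (SD, n = 4) and 10.3 ± 0.210 and 10.7 ± 0.226 CPM at day 24 (SD, n = 2) in WT and KO. Between days 20 and 26 it changed by -0.22 in WT (adjusted p = 0.392) and -0.32 in KO (adjusted p = 0.188), and the WT value of *Aldh1a3* ranged from -0.10 without WT_d26_2 to -0.37 without WT_d26_1.

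*Cyp26a1* lies at chr19:37697798-37701536 on the plus strand and was counted 8 to 34 times per library, so that its values are the least precise. It measured 2.28, 2.74, 1.56 and 1.7998 CPM in WT and 1.96, 2.22, 1.32 and 0.948 CPM in KO at day 20. At day 26 it measured 1.91 and 1.22 CPM in WT and 0.826 and 0.9753 CPM in KO. The groups did not overlap at day 26, as for 59% of all tested genes, and the difference passed no threshold. Its log2 fold change with age was -0.83 in KO (SE 0.375, adjusted p = 0.0688) and -0.39 in WT (SE 0.351, adjusted p = 0.385), by edgeR. Without KO_d20_4 the KO value of *Cyp26a1* was -1.01 and passed (adjusted p = 0.0262). The WT value was -0.77 without WT_d26_1 and -0.11 without WT_d26_2.

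*Cyp26b1*, the main breakdown enzyme by level and a gene known from peritubular cells, lies at chr6:84571414-84593908 on the minus strand. In KO it measured 260.5, 312, 299 and 307 CPM at day 20, then 193, 179, 279 and 138 at day 22, followed by 224 and 216 at day 24 and by 114 and 102 CPM at day 26. In WT the day 20 libraries held 272, 155, 340 and 305 CPM, those of day 22 held 241, 238, 245 and 223, those of day 24 held 215 and 213, and those of day 26 held 269 and 142 CPM. The KO libraries of day 26 were the lowest of all 24. *Cyp26b1* fell by 1.45 on the log2 scale between days 20 and 26 in KO (SE 0.280, adjusted p = 0.000257), the largest age change of any member in that fit. In WT the same comparison gave -0.38 (SE 0.265, adjusted p = 0.252) in edgeR. The WT value of *Cyp26b1* turned on single libraries, being -0.62 without WT_d20_2 (adjusted p = 0.0261), -0.93 without WT_d26_1 (adjusted p = 0.0362) and 0.01 without WT_d26_2 (adjusted p = 0.992).

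At day 26 *Cyp26b1* was lower in both KO libraries than in both WT libraries, where 59% of all tested genes did not overlap between genotypes. The log2 fold change was -0.93 (SE 0.304, 95% interval -1.56 to -0.30). This missed the threshold over all genes (adjusted p = 0.252 in edgeR). With WT_d20_2 and KO_d22_4 left out together, an alternative chosen after seeing the data, the difference of *Cyp26b1* was -0.92 and passed (adjusted p = 0.041). Without WT_d26_1 it was -0.38, and without WT_d26_2 it was -1.32. The KO effect on *Cyp26b1* at day 26 less that at day 20 was -1.07, and the test among days missed the threshold (adjusted p = 0.560 in edgeR). That difference was -0.52 without WT_d26_1 and -1.46 without WT_d26_2. The fall of *Cyp26b1* with age in KO is therefore not shown to differ from that in WT.

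Peritubular cell genes were lower beside *Cyp26b1*. Of the 6 genes of that list, 5 were called lower at day 26 than at day 20 in KO and 4 in WT, with median log2 fold changes of -0.91 and -0.76. Their summed level was 608 to 762 CPM at day 20 and 332 to 375 CPM at day 26 in KO, and 703 to 1191 CPM at day 20 and 433 to 529 CPM at day 26 in WT. Between genotypes at day 26, 0 of the 6 were called and their median log2 fold change was -0.47. The medians of the Leydig, endothelial and macrophage lists there were -0.54, -0.53 and -0.52, and that of the Sertoli list was -0.14. The parallel is thus not particular to peritubular genes. No peritubular gene was at 0 in any group, and the part of these cells in the *Cyp26b1* values was not tested.

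*Rara*, the receptor known from Sertoli cells and spermatids, lies at chr11:98927818-98974942 on the plus strand. Its WT means were 37.0 ± 13.7, 36.5 ± 3.01, 37.6 ± 2.97 and 32.8 ± 4.62 CPM from the first day to the last (SD, n = 4, 4, 2 and 2). Its KO means were 36.1 ± 8.10, 33.4 ± 4.76, 38.2 ± 0.393 and 29.7 ± 2.41 CPM in the same order. Group means thus lay close together, and the difference between KO and WT over the mean of the days was -0.07, with a 95% interval of -0.34 to 0.20. It was -0.13 without WT_d20_2 and -0.015 without WT_d20_3. Its age changes were -0.18 in WT (adjusted p = 0.605) and -0.28 in KO (adjusted p = 0.376) by edgeR, and the WT value of *Rara* passed at -0.45 without WT_d20_2 (adjusted p = 0.0465), the library with the lowest *Rara* of all. It was -0.03 without WT_d20_3, -0.34 without WT_d26_1 and -0.04 without WT_d26_2, and the KO value was -0.15 without KO_d20_4.

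*Rarg*, the receptor of differentiating spermatogonia, lies at chr15:102234938-102257517 on the minus strand. At day 22 it measured 8.10, 8.95, 11.8 and 9.56 CPM in WT and 8.05, 7.15, 7.65 and 5.63 CPM in KO. All 4 KO libraries were below all 4 WT libraries, by a narrow margin. *Rarg* was the 1 member of 10 so separated at that day, as were 8.09% of all tested genes. The log2 fold change was -0.43 (SE 0.202, 95% interval -0.85 to -0.01) with an adjusted p of 0.317 in edgeR. At day 20 its means were 8.84 ± 3.30 CPM in WT and 9.58 ± 0.642 CPM in KO (SD, n = 4), and at day 26 they were 8.68 ± 1.73 and 7.52 ± 0.405 CPM (SD, n = 2). Its age changes of -0.04 in WT (adjusted p = 0.916) and -0.35 in KO (adjusted p = 0.249) did not pass. The WT value of *Rarg* was 0.16 without WT_d20_3, 0.15 without WT_d26_2 and -0.29 without WT_d20_2.

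The peritubular list also stood lower in KO at day 22, the day at which *Aldh1a3* and *Rarg* had an unadjusted p under 0.05. Its summed level was 591 to 851 CPM in WT and 304 to 621 CPM in KO, with a median log2 fold change of -0.65 and 0 of 6 genes called. Of the 5 endothelial genes 1 was called lower at that day (median -0.62), and over the mean of the days 3 of the 6 peritubular genes were called lower (median -0.43). The mean standing of the list was lowest of the day 22 libraries in KO_d22_4, which also held the lowest *Aldh1a3*. The part of these cells was not tested.

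**Figure D3:**
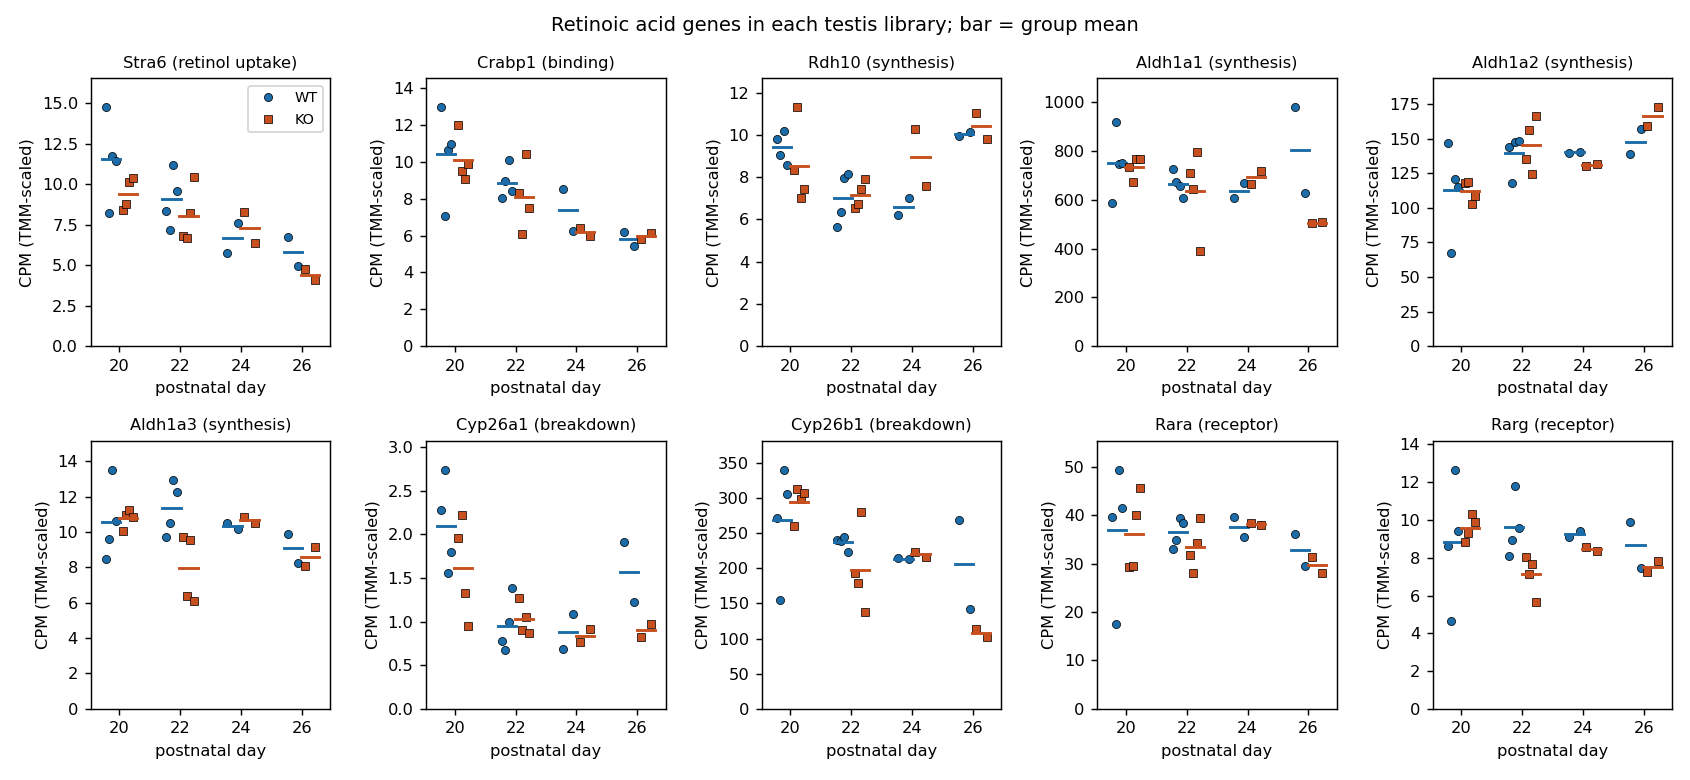
CPM of each member in each library by postnatal day, with WT as circles, KO as squares and a bar at each group mean, each vertical axis starting at 0. *Stra6* and *Crabp1* decline with day in both genotypes, and *Cyp26b1* in KO ends at 114 and 102 CPM at day 26.

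Over all 10 members, 2 of 10 were called lower at day 26 than at day 20 in WT, where 18.1% of all tested genes were, and 0 higher, where 24.4% were. In KO 4 were called lower (background 24.9%) and 1 higher (27.2%). The members called lower in KO were *Cyp26b1*, *Stra6*, *Crabp1* and *Aldh1a1*. The median log2 fold change of the 10 members was -0.20 in WT and -0.44 in KO, beside -0.04 and -0.07 over all tested genes. The 2 genotypes shared no libraries in these comparisons. A member called in 1 genotype and not in the other is not shown to differ between them, since the test of unequal KO effects among days called none. That test was joint over the days, and the change from day 20 to day 26 alone was not compared between genotypes.

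**Figure D4:**
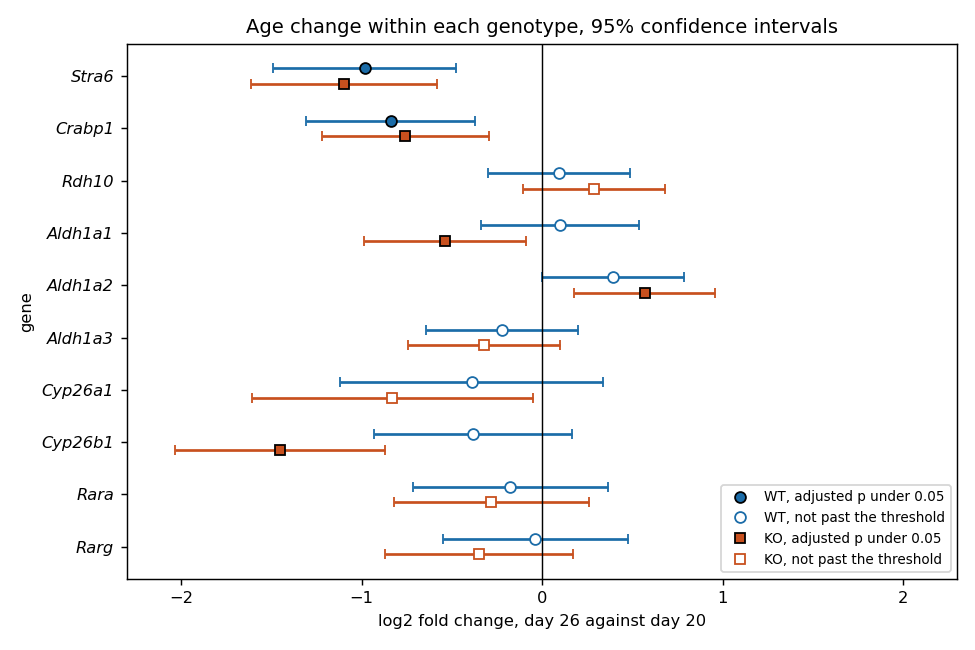
Log2 fold change of each member from day 20 to day 26, WT as circles and KO as squares, with 95% confidence intervals, filled where the adjusted p was under 0.05. *Stra6* and *Crabp1* lie below zero in both genotypes, *Cyp26b1* lies lowest in KO at -1.45, and *Aldh1a2* is the only filled point above zero.

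The age changes depended on the scale they were measured on. Of 10 Sertoli cell marker genes, 6 were called lower at day 26 in each genotype, with median log2 fold changes of -0.60 in WT and -0.71 in KO. The summed level of the list was 769 to 964 CPM in WT and 743 to 837 CPM in KO at day 20, and 563 to 683 and 561 to 599 CPM at day 26, and none of its genes was at 0. Scaling the libraries to hold this list constant raised the log2 fold changes with age by a median of 0.50 in WT and 0.57 in KO over 111 member, listed and marker genes. On that scale *Aldh1a2* rose by 0.93 in WT and 1.14 in KO (adjusted p = 0.000415 and 3.77e-05), and *Rdh10* rose by 0.60 in WT and 0.85 in KO (adjusted p = 0.0137 and 0.00079). *Crabp1* passed no threshold there (adjusted p = 0.196 in WT and 0.473 in KO). *Cyp26b1* in KO was still lower on the Sertoli scale, at -0.89. *Aldh1a1* in KO was at 0.03 on this scale, so its fall did not hold relative to Sertoli genes.

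Beyond the members, 39 other genes of retinoid handling were listed with earlier results of these data known, of which 31 passed the filter. Between KO and WT, 2 of the 31 (6.45%) were called at day 20, 1 (3.23%) at day 22, 0 at days 24 and 26, and 3 (9.68%) over the mean of the days, where the shares of all tested genes were those given for the members. *Rbp4*, which carries retinol in blood, was lower in KO over the mean of the days by 0.51 on the log2 scale (SE 0.114, adjusted p = 0.0155). *Nrip1*, a corepressor of nuclear receptors, had a log2 fold change of -0.30 (SE 0.0771, adjusted p = 0.0268). *Rdh12*, a retinal reductase, had values of -1.46 at day 20 (adjusted p = 0.0433) and -1.09 over the mean of the days (adjusted p = 0.0164), at only 2 to 20 counts per library. These were the 3 genes called over the mean of the days, all lower in KO. In the same comparison 3 of 6 peritubular genes (median -0.43) and 3 of 5 endothelial genes (median -0.54) were called lower in KO, and 4 of 6 round spermatid genes (median 1.14) and 5 of 6 elongating spermatid genes (median 2.68) higher, and their part in these values was not tested.

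The other called genes were higher in KO and were scarce. *Adh7*, an alcohol dehydrogenase that oxidizes retinol, at day 20 averaged 0.945 ± 0.637 CPM in KO (SD, n = 4) against 0.231 ± 0.189 in WT, a log2 fold change of 2.02 (adjusted p = 0.0351) that rested on 1 to 25 counts. *Bco1*, which cleaves beta-carotene to retinal, at day 22 averaged 2.01 ± 0.827 CPM in KO (SD, n = 4) against 0.758 ± 0.0882 in WT, a log2 fold change of 1.39 (adjusted p = 0.0221). Both genes also rose with age in each genotype, *Bco1* by 5.09 in WT and 3.86 in KO and *Adh7* by 3.82 and 1.85 on the log2 scale. The round spermatid marker list, called higher in KO at day 20 for 6 of its 6 genes, stood higher in the same groups as *Adh7*, with a summed level of 8.24 to 80.9 CPM in KO and 3.12 to 9.50 CPM in WT. At day 22 that list summed to 75.3 to 260.1 CPM in KO and 52.2 to 73.5 CPM in WT, with 0 of 6 genes called. Of the 6 elongating spermatid genes, 2 were called higher in KO at day 20 (median log2 fold change 3.43) and 4 at day 22 (4.48). Their summed level at day 22 was 52.9 to 441 CPM in KO and 22.1 to 63.2 CPM in WT. The part of spermatid number in the *Adh7* and *Bco1* values was not tested.

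Calls on these scarce or small changes were lost easily. Without 1 library at a time the *Adh7* value at day 20 ranged from 1.61 to 2.61 and missed the threshold in 5 of 24 fits (without KO_d20_3, KO_d20_4, WT_d20_2, WT_d20_3 or WT_d20_4), and that of *Bco1* at day 22 ranged from 1.08 to 1.56 and missed it in 4 (without KO_d22_2, WT_d22_2, WT_d22_3 or WT_d22_4). The *Rdh12* value at day 20 missed it in 17 of 24 fits. Leaving out both libraries that stood apart ended the day 20 calls of *Adh7* (1.87) and *Rdh12* (-1.28), and scaling to Sertoli genes (-1.39) or no filter (-1.45) also ended that of *Rdh12*. A replicate block in edgeR ended both day 20 calls as well (*Adh7* 2.07, adjusted p = 0.0612, and *Rdh12* -1.43, adjusted p = 0.122). The call of *Bco1* was lost with day 22 fitted alone (1.41, adjusted p = 0.0946), and that of *Nrip1* with scaling to Sertoli genes (-0.29, adjusted p = 0.0771). Over the mean of the days *Nrip1* missed it in 7 (without either library of KO at day 24, KO at day 26 or WT at day 26, or without WT_d24_2), and *Rbp4* and *Rdh12* in 2 each (without WT_d24_2 or KO_d26_2), with ranges of -0.33 to -0.25, -0.57 to -0.41 and -1.40 to -0.93.

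Neither tested partner receptor was called between genotypes. *Rxra* and *Rxrb*, 2 of the 4 listed receptors that passed the filter, had log2 fold changes of 0.09 (adjusted p = 0.758) and 0.05 (adjusted p = 0.789) over the mean of the days, with ranges of 0.031 to 0.16 and 0.019 to 0.091 when 1 library was left out. *Rxra* had 0.33 at day 20 and -0.21 at day 26, neither of which passed. The receptor gene *Rarb* and the breakdown gene *Cyp26c1* were too scarce to test, with at most 11 and 3 counts in a library. Among germ cell genes that respond to retinoic acid, *Kit* had -0.25 (adjusted p = 0.0924) and *Rec8* 0.18 (adjusted p = 0.471) over the mean of the days in edgeR, and *Kit* passed at -0.28 without KO_d20_2. With all libraries none of the 3 tested genes of that list was called between genotypes.

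With age 6 of the 31 listed genes were called higher and 7 lower in WT, and 7 higher and 7 lower in KO. Called genes were 41.9% of the list in WT and 45.2% in KO, near the shares of all tested genes, which were 24.4% higher and 18.1% lower in WT and 27.2% and 24.9% in KO. *Rec8*, a meiotic cohesin, rose by 2.21 in WT and 1.91 in KO on the log2 scale. *Stra8*, the gene that retinoic acid induces at meiotic entry, fell by 1.14 in WT (adjusted p = 0.00144) and stood at -0.59 in KO (adjusted p = 0.0594). *Kit*, a receptor of differentiating spermatogonia, fell by 0.66 in WT and by 0.91 in KO. In each genotype 4 of 6 pachytene genes and 6 of 6 genes of each spermatid list were called higher with age. Lower were 5 of 9 spermatogonia genes and 3 of 6 early meiosis genes in each, with 1 early meiosis gene higher in KO. The part of these cells in the *Rec8*, *Stra8* and *Kit* values was not tested. The retinol carrier *Rbp4* fell by 0.72 in WT and by 0.79 in KO. Without WT_d26_2 the WT values of *Kit* and *Rbp4* were -0.44 and -0.74 and missed the threshold, as did *Rbp4* without WT_d26_1 (-0.70). Without KO_d26_2 the KO value of *Rbp4* was -0.75 and missed it. The KO value of *Stra8* passed without KO_d20_3 (-0.69), KO_d20_4 (-0.77) or WT_d20_2 (-0.59) and was -0.34 without KO_d20_2. Scaled to the Sertoli list, the age changes of *Stra8* in WT and of *Kit* and *Rbp4* in both genotypes lay between -0.65 and -0.18 and none passed, and *Stra8* in KO stood at -0.03.

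The members did not share 1 pattern over the libraries. For each member the 3 tested genes with the most similar log2 CPM were taken, of which 2 are given for *Stra6* and *Rara*, by Pearson correlation over the 24 libraries, as a description that includes the shift between days. *Aldh1a2* was most like *Qrich1*, *Dis3l* and *Lrrc59* (r = 0.97, 0.97 and 0.96), and *Cyp26b1* like *Dennd2a*, *Hr* and *Kcp* (0.96, 0.94 and 0.94). *Stra6* was most like *Acss1* and *Kdm5c* (0.94 and 0.93), and *Rara* like *Bahd1* and *Map7d1* (0.94 and 0.93). *Aldh1a1* was most like *Acaa2*, *Serpinb1a* and *Rbbp7* (0.93, 0.91 and 0.91), *Rarg* like *Ccdc102a*, *Tnfsf12* and *Scarf2* (0.91, 0.90 and 0.89), and *Crabp1* like *Plcd1*, *Nfatc2* and *Rps2* (0.90, 0.88 and 0.88). *Aldh1a3* was most like *Loxl1*, *Bgn* and *Tgfbr2* (0.90, 0.89 and 0.89), and *Cyp26a1* like *Haus7*, *Atp2c1* and *Pecr* (0.84, 0.82 and 0.82). *Rdh10* had the least similar neighbours, *Pcdh17*, *Phactr1* and *Fam134b* (0.80, 0.77 and 0.75). No member was among the 3 genes most like another member.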

How the data were processed

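Libraries of ribosome-depleted, strand-marked total RNA were sequenced as read pairs. The authors aligned them to mm10 with STAR 2.7.11b and made the deposited counts per gene with HTSeq, on exons and by strand. They normalized with DESeq2 1.22.2 and tested with SARTools, and neither output is used here. Tallies of read pairs on no gene (45.1 to 58.5%), on several places (4.74 to 13.7%) or on ambiguous genes (0.132 to 0.229%) stayed out of library sizes. The counts of all 24 libraries were fitted together in edgeR 4.0.16 (limma 3.58.1, R 4.3.3) with 8 groups of genotype and day, TMM factors, filterByExpr at a minimum count of 10, the quasi-likelihood test and Benjamini-Hochberg adjustment over 17170 genes, with a threshold of 0.05. Scripts were tested on simulated data. Alternatives were DESeq2 1.42.0, relative log expression scaling, scaling to Sertoli genes, no filter, groups fitted alone, a replicate block, and each library left out in turn. Leaving out WT_d20_2 and KO_d22_4 together was chosen after seeing the data. Gene positions and exon lengths came from GENCODE M21 and promoters from RefSeq. Tables were handled with pandas 2.3.3 and numpy 2.4.6, and log2 CPM used a prior count of 2. The members and lists were chosen with earlier results of these data known. The rule for named genes took all members, listed genes called between genotypes or else the 2 with the largest change per list, and the 3 genes most correlated with each member. *Kit*, *Stra8*, *Rec8*, *Rbp4*, *Bco1* and *Adh7* are also given for their age changes, chosen after their values were seen. Some genes that the rule would name are not reported here. Replicates of the same group were compared in pairs, and each pair differed by more than sampling noise. Marker lists beside those reported were spermatogonia (5 of 9 genes lower with age in each genotype), early meiosis (3 of 6 lower in each, and 1 higher in KO), elongating spermatids (6 of 6 higher in each), endothelial cells (2 of 5 lower in WT and 3 in KO) and epididymis (1 of 4 higher in each). At days 24 and 26 the mean standing of the epididymis list was far higher in replicate 2 than in replicate 1 of each genotype. Its summed level was 24.1 to 739 CPM in WT and 47.7 to 189 CPM in KO at day 24. At day 26 it was 84.5 to 601 CPM in WT and 70.6 to 195 CPM in KO. KO_d20_3, WT_d20_3, KO_d22_1 and WT_d22_4 stood highest of their groups. The part of this tissue was not tested, also where values moved without WT_d24_2 or WT_d26_2.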

Additional observations from a re-analysis of the deposited data

Results flagged for a closer look

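In WT at day 22, *Aldh1a2* measured 118 CPM in WT_d22_2, while the other libraries of that group lay between 144 and 148 CPM. The gap below the others was 0.864 of the whole range of the group. This was 1 of 40 group and member combinations of 4 libraries that were examined in this way, and chance marks about 5% of such groups.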

How the results depend on the processing

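Between genotypes 0 members were called at day 20, day 24, over the mean of the days and in the test among days under every alternative run. The counts that moved were 1 at day 22, for *Aldh1a3*, with scaling to Sertoli genes (-0.65, adjusted p = 0.0399 in edgeR) or without KO_d22_1, so that leaving out 1 library gave 0 to 1, and 1 at day 26, for *Cyp26b1*, with both libraries that stood apart left out. Leaving out 1 library gave 0 to 4 called members for the WT age change (0 without WT_d26_2, 4 without WT_d20_2) and 2 to 6 for KO (2 without KO_d26_1, 6 without KO_d20_2). The value of *Aldh1a2* over the mean of the days ranged from -0.0099 to 0.076 without 1 library and was -0.018 without both that stood apart. In the WT age change the ranges without 1 library were -0.27 to 0.38 for *Aldh1a1*, -0.93 to 0.0054 for *Cyp26b1* and -0.29 to 0.16 for *Rarg*. Scaled to Sertoli genes, the WT age values were 0.29 for *Aldh1a3*, 0.080 for *Cyp26a1*, 0.11 for *Cyp26b1*, 0.35 for *Rara* and 0.49 for *Rarg*, and the KO values 0.030 for *Aldh1a1*, 0.25 for *Aldh1a3*, 0.29 for *Rara* and 0.22 for *Rarg*. The cause of each was not tested beyond the change of scale. That scale shifted listed genes by a median of -0.13 at day 22 and 0.14 at day 26, and put 97.2% and 95.4% of called genes higher with age in WT and KO, against 57.4% and 52.2%, and 30.7% higher in KO at day 22 against 50.3%, a share that was 73.2% without both libraries that stood apart and 13.04% with day 22 fitted alone. The *Cyp26b1* fall in KO was called under each alternative run for the age changes, which did not include the replicate block, from -0.89 to -1.45, and from -1.39 to -1.55 without 1 library. Over all genes, days fitted alone called 5, 69, 11 and 2104 genes at days 20, 22, 24 and 26, against 573, 431, 15 and 8. DESeq2 called 892, 737, 40 and 159, and 272 among days against 1. Both libraries left out gave 26 and 321 at days 24 and 26, and 2 among days, and scaling to Sertoli genes gave 4, 2 and, over the mean of the days, 750 against 1215. With the replicate block, 0 members were called in any genotype comparison, with 9, 5 and 14 genes at day 24, day 26 and among days, and the day 20 calls of *Adh7* (2.07, adjusted p = 0.0612) and *Rdh12* (-1.43, adjusted p = 0.122) were lost. Same-numbered libraries correlated from 0.07 to 0.41 at day 20 and from -0.46 to -0.03 at day 22, and at 0.39 and 0.42 at days 24 and 26. With 2 libraries in a group the 2 numbers mirror each other, so days 24 and 26 give 1 value each. Libraries correlated best with their own number for 3 of 4 at day 20, for 0 at day 22 and for both at days 24 and 26. Not every pair exceeded 0.1 and no label gives a pairing, so the numbers were not taken as pairs. Where leaving out 1 library at day 24 or 26 left 1 in a group, it was assumed to vary like the other groups. Counting depth limits *Cyp26a1* most, at 8 counts in its lowest library.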
